A study of Mus musculus with 6 samples.

Results

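The lamins and the inner nuclear membrane proteins that bind them were followed as transcripts in cultured mouse neural stem and progenitor cells (NSPCs) exposed to an oxidant or an antioxidant. The 10 genes, Lmna, Lmnb1, Lmnb2, Lbr, Tmpo, Lemd3, Emd, Banf1, Sun1 and Sun2, were selected from the 17254 genes with reads in any library, by name and with earlier results of these libraries known. Their values are therefore described for these libraries and not tested as a set. All 10 passed the filter on low values, which kept the 11717 genes averaging 1 FPKM or more over the libraries.

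RNA-seq was done on 6 libraries, 2 per group, all after 48 h. The control cells were mock-treated, the second group received 5 µM paraquat (PQ), a redox-cycling herbicide that generates superoxide in the cell, and the last received 5 mM N-acetylcysteine (NAC), a thiol antioxidant. All groups come from an immortalized neonatal Ink/Arf-/- culture in N2 medium with EGF and bFGF, a single mixed line. The genotype (spelled Ink/Ark) and the C57BL/6 strain are labelled for control 1 and PQ 1 alone. The study's reporting summary calls the sequencing replicated, but neither it nor the labels say whether libraries of a group came from separate cultures, so p-values measure the spread between libraries, which may be technical.

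The labels of control 1 and PQ 1 describe an Illumina protocol, and those of control 2, PQ 2, NAC 1 and NAC 2 describe another extraction and the BGISEQ-500 platform. The NAC group has no library under the Illumina label, so there the difference was also taken against control 2 alone. Library totals ran from 9680436 to 10698241 expected counts.

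The labelled cell type was checked against markers. The neural stem and progenitor genes Nes, Sox2, Pax6, Fabp7, Msi1, Vim, Olig2 and Egfr passed the filter. Vim was the most abundant of these, at 2170 and 2320 FPKM in control, 2550 and 2650 in PQ and 1360 and 1390 in NAC. The summed FPKM of 5 neuronal genes, nearly all of it Map2, was 38.0 and 35.7 in control, 33.5 and 34.6 in PQ and 65.2 and 58.5 in NAC. Tubb3, below the filter, went the other way, at 2.38 and 1.30 FPKM in control, 0.72 and 0.47 in PQ and 0.32 and 0.44 in NAC. Dcx was at most 0.08 FPKM, Stmn2 had at most 3 counts in every library and Rbfox3 is not listed in the tables. The 4 astrocyte genes summed to 4.39 and 4.63 FPKM in control, 6.75 and 6.02 in PQ and 9.64 and 9.53 in NAC. Gfap was the most abundant of these in control and NAC, and Aldh1l1 in PQ. Aldh1l1 had 3.28 and 2.36 FPKM in PQ against 1.11 and 1.34 in control (log2 fold change 1.17, SE 0.26, adjusted p = 0.0035 by edgeR). In NAC against control, Gfap and Aqp4 rose (1.23 and 1.76, SE 0.21 and 0.22, adjusted p = 3.1e-04 and 1.4e-05 by edgeR). Aldh1l1 and S100b did not pass there (-0.49 and 1.17, adjusted p = 0.306 and 0.0744 by edgeR). The 6 oligodendrocyte lineage genes, led by Pdgfra, summed to 10.7 and 11.9 FPKM in control, 11.1 and 11.4 in PQ and 14.2 and 16.3 in NAC, with Sox10 at 3 counts or fewer throughout and Mog not listed. The 6 microglial genes, led by P2ry12, summed to 2.05 and 1.89 FPKM in control, 3.01 and 3.05 in PQ and 4.50 and 3.53 in NAC. Of these, Aif1, Tmem119, Csf1r and Ptprc had no more than 3 counts. P2ry12 was higher in NAC than in control (log2 fold change 1.18, SE 0.26, adjusted p = 0.00329 by edgeR). The 3 endothelial genes, led by Pecam1, summed to at most 0.540 FPKM and the 5 fibroblast and mural genes, with Dcn or Col1a1 the most abundant, to at most 2.24 FPKM, with Cdh5, Lum and Pdgfrb at 3 counts or fewer and Cldn5 not listed. Vim, Map2 and the summed astrocyte, oligodendrocyte lineage and microglial markers thus differed between NAC and the other groups. The part of these differences in the lamin values was not tested.

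Cdkn2a, the locus named by the genotype, was read at 16.6 and 19.1 FPKM in control, 13.7 and 15.9 in PQ and 14.4 and 15.7 in NAC. The tables give a single value per gene, which does not separate deleted from remaining exons, so this level does not check the deletion. The groups share the genotype, and no comparison rests on it.

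The nuclear lamina is a meshwork of intermediate filaments under the inner nuclear membrane. B-type lamins (Lmnb1, Lmnb2) stay farnesylated and membrane-bound, whereas A-type lamins, the splice products of Lmna, are largely released from the membrane after maturation and scale with the stiffness and the differentiation state of tissue. Loss of lamin B1 is widely used as a mark of senescent cells.

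In PQ, the transcripts of 5 of the 10 genes fell against control, namely Lmnb1, Tmpo, Lbr, Sun2 and Banf1, and the other 5 did not pass. Of the 11717 genes tested, 9.45% were called lower in this comparison and 9.76% higher (edgeR, quasi-likelihood, Benjamini-Hochberg, threshold 0.05). The median log2 fold change of the 10 genes was -0.42, against a median of -0.00 over all genes tested. In NAC against control, Lmnb1, Lmnb2 and Sun2 rose and Lmna and Sun1 fell, where 9.01% of all genes were called higher and 9.64% lower. Here the 10 genes had a median of -0.03, and all genes -0.00. The Lmnb2 and Sun1 calls in NAC were lost under several alternatives, given with each gene. Between PQ and NAC, only Lmna of the 10 was higher in PQ, and Lmnb1, Lmnb2, Tmpo, Lbr, Lemd3, Banf1 and Sun2 were lower, with 16.0% of all genes called higher and 15.7% lower, and medians of -0.42 for the 10 genes and 0.00 for all. These comparisons share libraries, so a library that lies apart enters more than a single difference. With 2 libraries a group, FPKM ranges often separate. In PQ against control, both PQ libraries lay above control in 31.6% of all genes tested and below in 25.7% (0 and 7 of the 10 genes). The shares were 34.2% above and 23.2% below in NAC against control (5 and 3 of the 10). They were 31.2% above and 35.1% below in PQ against NAC (2 and 8 of the 10). Lack of overlap is a description here. In bulk RNA, fewer cells expressing a gene and less of its RNA per cell cannot be told apart.

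**Figure D1:**
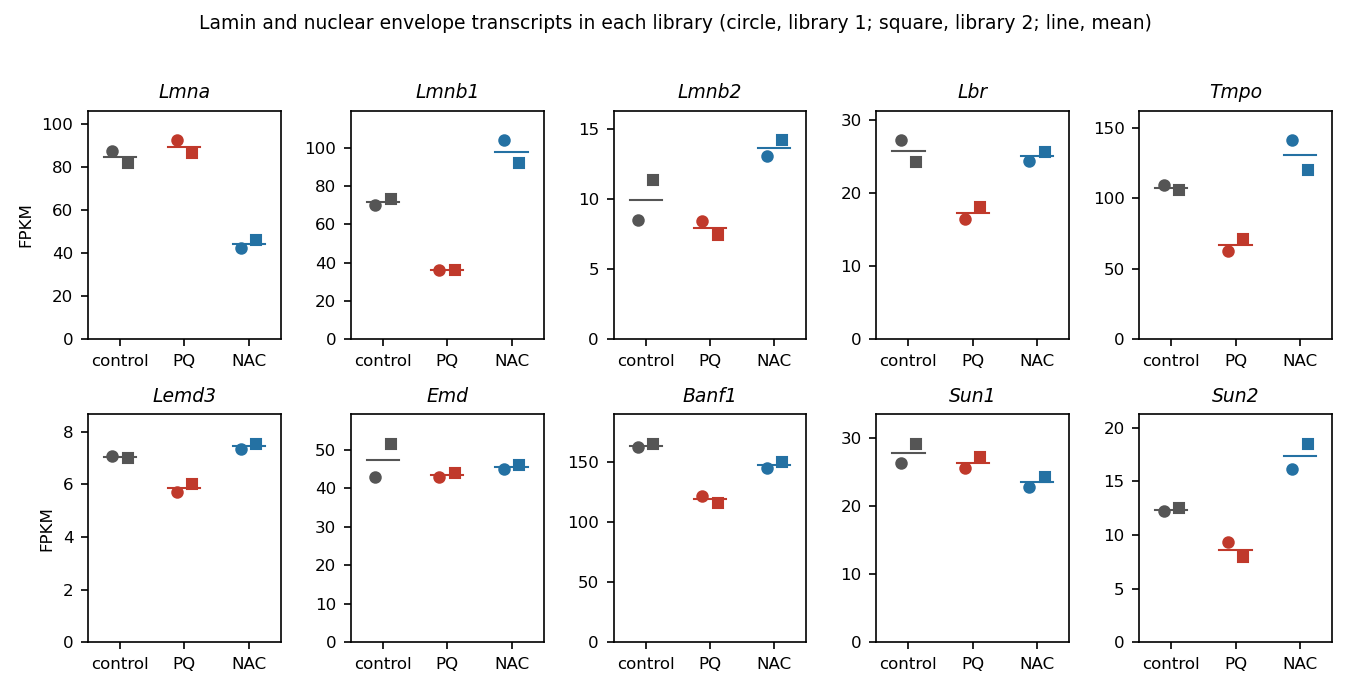
FPKM of each of the 10 genes (vertical axes, each starting at 0) in the control, PQ and NAC libraries, with circles for library 1, squares for library 2 and lines for the group mean. Lmnb1 lies at 36.3 and 35.9 in PQ below all other libraries, and Lmna lies at 42.3 and 46.0 in NAC below all other libraries.

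In control, the mean level per transcript length, in FPKM, was highest for Banf1, at 164 ± 1.90 (SD, n = 2), followed by Tmpo at 108 ± 2.55, Lmna at 84.5 ± 4.04, Lmnb1 at 71.8 ± 2.04 and Emd at 47.3 ± 6.05. Sun1 and Lbr followed at 27.8 ± 1.98 and 25.8 ± 2.09 FPKM, and their control libraries overlapped. Sun2 at 12.3 ± 0.191, Lmnb2 at 9.98 ± 2.06 and Lemd3 at 7.04 ± 0.0636 FPKM were the lowest of the 10. In PQ, Lmna took the second place, at 89.4 ± 4.17 FPKM above Tmpo at 66.9 ± 6.02, and Lmnb1 moved to the fifth, at 36.1 ± 0.283. In NAC, Lmnb1 followed Tmpo at 98.1 ± 8.82 FPKM, and Lmna, at 44.2 ± 2.60, overlapped with Emd at 45.6 ± 0.764. In PQ, Sun2 and Lmnb2 overlapped as well. No other neighbours in the order overlapped within a group.

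Lmna (NCBI gene 16905), which encodes lamins A and C, was read at 87.3 and 81.6 FPKM in control, at 92.3 and 86.4 in PQ and at 42.3 and 46.0 in NAC. Both NAC libraries lay below all 4 others, and the PQ and control ranges overlapped. Its log2 fold change was 0.08 in PQ against control (SE 0.10, adjusted p = 0.604 by edgeR), with 0.11 within the Illumina label and 0.06 within the BGISEQ-500 label, and -0.98 in NAC against control (SE 0.10, adjusted p = 1.1e-06 by edgeR). PQ against NAC gave 1.06 (SE 0.10, adjusted p = 2.2e-07 by edgeR). Against control 2 alone, under the same label, the mean of the NAC libraries differed by -0.97 on the log2 scale.

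Lmnb1 (NCBI gene 16906), which encodes lamin B1, moved with both treatments. It stood at 70.3 and 73.2 FPKM in control, 36.3 and 35.9 in PQ and 104 and 91.9 in NAC. The 3 groups did not overlap, with PQ lowest and NAC highest, and such separation was common over all genes, as given above. PQ against control gave a log2 fold change of -1.02 (SE 0.10, adjusted p = 1.6e-06 by edgeR), with -1.0 within the Illumina label and -1.04 within the BGISEQ-500 label. NAC against control gave 0.41 (SE 0.09, adjusted p = 0.00506 by edgeR), and without NAC 1 it was 0.30 and no longer passed (adjusted p = 0.104 by edgeR, with 7.6e-04 to 0.104 over its alternatives). Against control 2 alone the NAC mean differed by 0.38. The PQ and NAC libraries differed by -1.42 (SE 0.10, adjusted p = 8.3e-09 by edgeR).

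Lmnb2 (NCBI gene 16907), encoding lamin B2, was far lower per length than the other lamins. It had 8.52 and 11.4 FPKM in control, 8.45 and 7.40 in PQ and 13.1 and 14.2 in NAC. The NAC libraries were the highest, and the control libraries were spread over much of the distance between PQ and NAC, control 1 lying close to PQ 1. In PQ against control its log2 fold change was -0.36 and did not pass (SE 0.14, adjusted p = 0.0793 by edgeR). Without control 1 it was -0.55 (adjusted p = 0.00798 by edgeR, and up to 0.574 over its alternatives). Within the Illumina label the difference was -0.06 and within the BGISEQ-500 label -0.63. In NAC it rose by 0.41 (SE 0.13, adjusted p = 0.037 by edgeR), a call lost without control 1 (0.22, adjusted p = 0.319 by edgeR), without NAC 1 (0.46, adjusted p = 0.0902) and without NAC 2 (0.36, adjusted p = 0.2), within 0.00216 to 0.319 over its alternatives. The call was also lost under DESeq2 (adjusted p = 0.0871) and both limma fits (0.0669 and 0.0653). By edgeR it was lost with the replicate block (0.0674) and with the labelled protocol as a covariate (0.135). Against control 2 alone the NAC mean differed by 0.22. PQ lay below NAC by a log2 difference of -0.77 (SE 0.14, adjusted p = 2.6e-04 by edgeR).

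The share of each lamin in the summed lamin FPKM was computed per library, since these 3 transcripts are compared per length. Lmna made up 52.5% and 49.1% of the lamin FPKM in control 1 and control 2, 67.4% and 66.6% in PQ 1 and PQ 2, and 26.5% and 30.2% in NAC 1 and NAC 2. Lmnb1 made up 42.3% and 44.0% in control, 26.5% and 27.7% in PQ and 65.3% and 60.4% in NAC. Lamin mRNA was thus split about evenly between Lmna and the B-type lamins in control, with Lmna the larger part in PQ and Lmnb1 the larger part in NAC. The ratio of Lmna to Lmnb1 FPKM was 1.24 and 1.11 in control, 2.55 and 2.41 in PQ and 0.41 and 0.50 in NAC, and the 3 groups did not overlap. The ratio itself was not tested. In PQ it was set apart from control by lower Lmnb1, and in NAC by lower Lmna together with higher Lmnb1. The summed FPKM of the 3 lamins was 166 in each control library, against 137 and 130 under PQ and 160 and 152 under NAC.

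**Figure D2:**
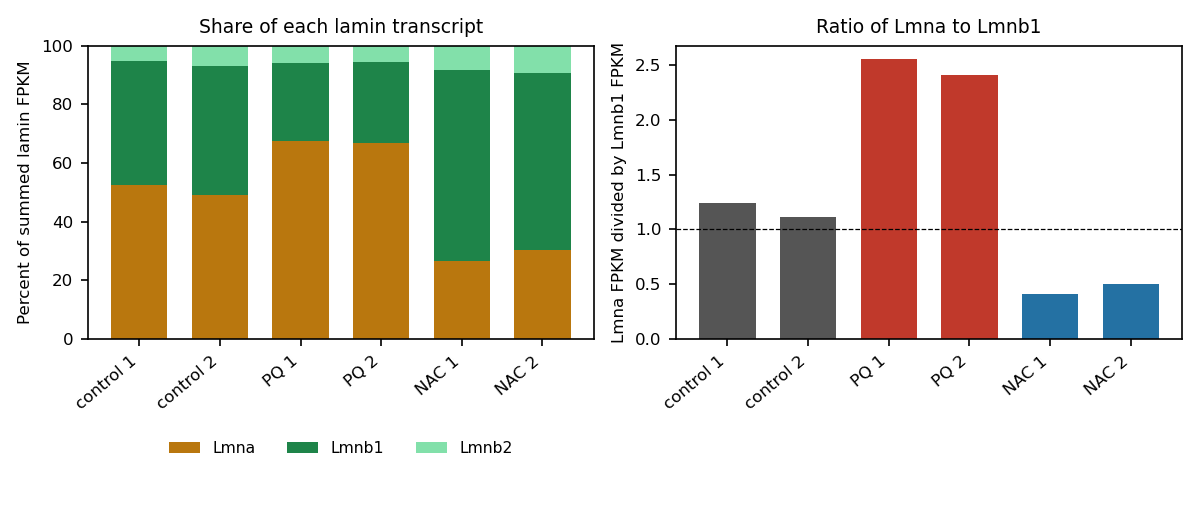
Left, the percent of the summed lamin FPKM taken by Lmna, Lmnb1 and Lmnb2 in each library. Right, Lmna FPKM divided by Lmnb1 FPKM, with a dashed line at equal levels, which lies at 2.55 and 2.41 in PQ, above 1 in control and below 1 in NAC.

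The length column of each table, a mean over transcripts weighted by abundance, was read as a description of the transcript mix. For Lmna, with 3 transcripts, it was 2026 and 2150 bases in control, 2129 and 2123 in PQ and 2028 and 2145 in NAC. The control and NAC libraries thus spanned nearly the same range, and the mix of Lmna transcripts did not separate the groups by this measure. For Tmpo, with 6 transcripts, the length was 3577 bases in both libraries of the control group, against 3578 and 3584 under PQ and 3567 and 3562 under NAC, a spread of few bases. Lmnb1, Lmnb2, Lbr, Emd and Lemd3 are listed with 1 transcript each, so their length cannot vary.

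RefSeq promoter windows of GRCm38.p6, 250 bases before to 50 bases after an annotated start site, were found for 9 of the 10 genes, 14 windows in all. Lmnb1 was not matched. Shown here is a window of each of the other genes that fell in PQ. Letters searched on both strands were TTTGAA (the CHR element of cell cycle genes), CCAAT (bound by NF-Y), TTTCCCGC or TTTGGCGC (E2F) and TGTTTAC (FOXO). Capitals mark each match as it reads on the gene's strand, so that a CHR match on the opposite strand reads TTCAAA. None of the matches shown overlaps another.
Lbr, chr1:181842352-181842651, minus strand: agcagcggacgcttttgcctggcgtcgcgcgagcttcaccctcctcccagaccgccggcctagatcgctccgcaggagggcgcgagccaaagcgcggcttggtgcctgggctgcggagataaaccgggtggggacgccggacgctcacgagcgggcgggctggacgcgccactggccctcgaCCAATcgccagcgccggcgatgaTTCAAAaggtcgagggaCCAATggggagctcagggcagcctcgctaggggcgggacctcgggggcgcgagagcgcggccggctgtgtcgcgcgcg
Sun2, chr15:79742487-79742786, minus strand: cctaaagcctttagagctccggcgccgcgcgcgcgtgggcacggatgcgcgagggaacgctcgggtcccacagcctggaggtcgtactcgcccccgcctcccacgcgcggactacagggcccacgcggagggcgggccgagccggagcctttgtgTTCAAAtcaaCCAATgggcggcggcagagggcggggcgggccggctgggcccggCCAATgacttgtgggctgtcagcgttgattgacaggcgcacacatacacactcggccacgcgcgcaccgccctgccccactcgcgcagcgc
Tmpo, chr10:91171570-91171869, minus strand: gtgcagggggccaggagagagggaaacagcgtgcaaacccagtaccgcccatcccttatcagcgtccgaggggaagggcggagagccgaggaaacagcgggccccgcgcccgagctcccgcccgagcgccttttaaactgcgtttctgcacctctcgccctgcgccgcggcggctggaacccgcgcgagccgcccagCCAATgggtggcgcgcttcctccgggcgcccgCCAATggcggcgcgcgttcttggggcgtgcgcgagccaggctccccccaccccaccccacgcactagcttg
Banf1, chr19:5366827-5367126, minus strand: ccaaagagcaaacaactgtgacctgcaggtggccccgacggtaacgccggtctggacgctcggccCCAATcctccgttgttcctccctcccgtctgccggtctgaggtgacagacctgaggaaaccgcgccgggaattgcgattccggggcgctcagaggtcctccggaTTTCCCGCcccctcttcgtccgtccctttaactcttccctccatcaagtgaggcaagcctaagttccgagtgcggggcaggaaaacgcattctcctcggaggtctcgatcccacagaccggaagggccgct
The start sites of Lbr, Sun2 and Banf1 used here are the 5′ ends of those genes in RefSeq, and the Tmpo start site lies 10133 bases inside the annotated gene. The Lbr and Sun2 windows hold a CHR match and 2 CCAAT matches each. In Lbr the CHR match lies at -45 to -40 between CCAAT matches at -68 to -64 and -28 to -24, and in Sun2 it lies at -95 to -90, upstream of CCAAT at -85 to -81 and -41 to -37. The Tmpo window holds CCAAT at -53 to -49 and -21 to -17, and the Banf1 window holds CCAAT at -185 to -181 and an E2F match at -81 to -74. A second Tmpo window, 11202 bases inside the gene, holds an E2F and a CHR match, and a second Banf1 window, 513 bases inside the gene, holds no match.

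Over all 32851 windows of the same length, 17.9% hold a CHR match, 37.4% a CCAAT match, 1.56% an E2F match and 3.65% a FOXO match, and 6.95% hold both CHR and CCAAT. Among the 14 windows of the 10 genes, 3 hold CHR, 9 hold CCAAT, 2 hold E2F, 0 hold FOXO and 2 hold CHR with CCAAT. Matches were not confined to genes that fell in PQ. The Emd and Lemd3 windows and both Sun1 windows hold CCAAT, as does the downstream Lmna window. The other Lmna window and both Lmnb2 windows hold no match. The Lmna start sites lie 6580 and 16620 bases from the annotated 5′ end of the gene, so neither window covers that end. The second Lmnb2 and Sun1 start sites lie 11833 and 14594 bases from the 5′ ends of those genes. A match describes the letters in a window, not a bound site.

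**Figure D3:**
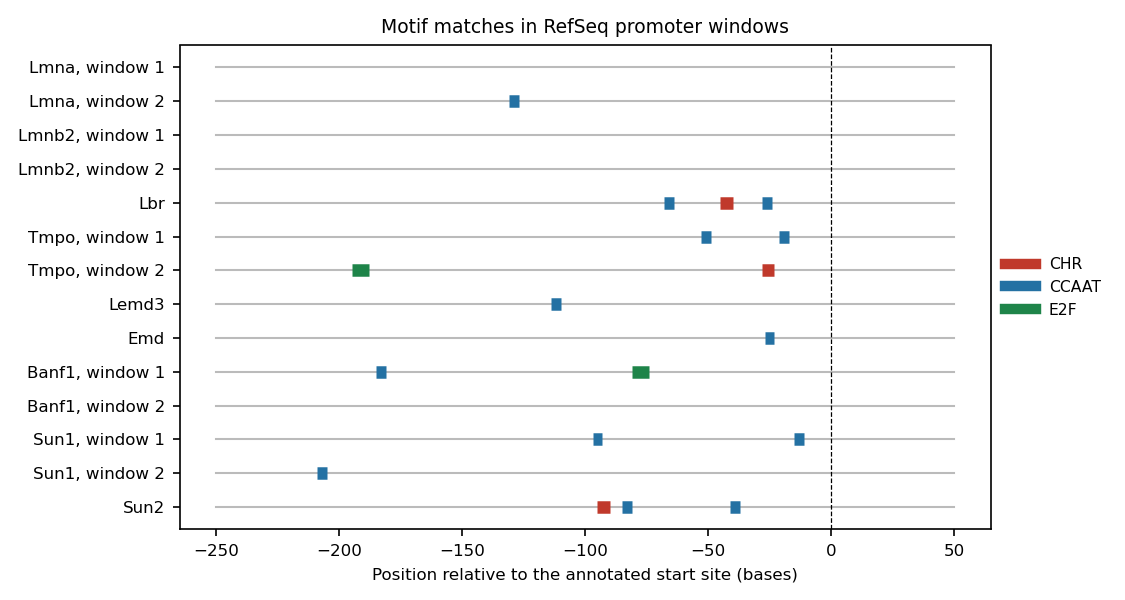
Matches to the CHR, CCAAT and E2F letters in each promoter window, by position in bases from the annotated start site (dashed line). Gray lines are the windows from 250 bases before to 50 after the start, and CHR lies beside CCAAT in the Lbr and Sun2 windows.

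Lbr (NCBI gene 98386), an inner membrane protein that binds B-type lamins and heterochromatin and also acts in sterol synthesis, had 27.2 and 24.3 FPKM in control, 16.4 and 18.1 in PQ and 24.4 and 25.6 in NAC. Both PQ libraries lay below all others, and NAC overlapped with control. Its log2 fold change was -0.61 in PQ against control (SE 0.10, adjusted p = 5.1e-04 by edgeR), with -0.78 within the Illumina label and -0.43 within the BGISEQ-500 label. In NAC it was -0.09 (SE 0.10, adjusted p = 0.594 by edgeR), and 0.00 against control 2 alone. PQ against NAC gave -0.52 (SE 0.10, adjusted p = 9.1e-04 by edgeR).

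Tmpo (NCBI gene 21917) encodes the lamina-associated polypeptides LAP2, LEM-domain proteins of which the alpha form is nucleoplasmic and binds A-type lamins. Its FPKM was 109 and 106 in control, 62.6 and 71.2 in PQ and 141 and 120 in NAC. The groups did not overlap, PQ being lowest and NAC highest, and the NAC libraries lay farther apart than the control libraries. In PQ Tmpo fell, with a log2 fold change of -0.71 (SE 0.10, adjusted p = 1.2e-04 by edgeR), with -0.85 and -0.57 within the Illumina and BGISEQ-500 labels. In NAC the value was 0.23 and did not pass (SE 0.10, adjusted p = 0.136 by edgeR), with 0.25 against control 2 alone. The difference between PQ and NAC was -0.94 (SE 0.10, adjusted p = 1.7e-06 by edgeR).

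Banf1 (NCBI gene 23825), whose product is the small DNA-bridging partner of LEM-domain proteins, was read at 162 and 165 FPKM in control, 122 and 116 in PQ and 145 and 150 in NAC. PQ was lowest and control highest in every library, with NAC between them. The log2 fold change was -0.48 in PQ (SE 0.09, adjusted p = 0.00126 by edgeR), with -0.46 and -0.51 within the Illumina and BGISEQ-500 labels. NAC against control gave -0.20 (SE 0.09, adjusted p = 0.15 by edgeR), the same as against control 2 alone. PQ against NAC gave -0.29 (SE 0.09, adjusted p = 0.0263 by edgeR), which did not pass when PQ 1, PQ 2, NAC 1 or NAC 2 was left out (-0.31, -0.26, -0.30 and -0.27, adjusted p = 0.101, 0.159, 0.0819 and 0.116, within 0.0167 to 0.159 over its alternatives).

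The other LEM-domain genes moved less. Lemd3 (NCBI gene 380664), encoding MAN1, which also binds SMAD proteins, had 7.09 and 7.0 FPKM in control, 5.70 and 6.01 in PQ and 7.35 and 7.54 in NAC. PQ was below and NAC above the control libraries, at 279 to 377 counts a library. Its log2 fold change in PQ was -0.29 and did not pass (SE 0.12, adjusted p = 0.0938 by edgeR), with -0.36 and -0.23 within the Illumina and BGISEQ-500 labels. In NAC it was 0.03 (SE 0.12, adjusted p = 0.881 by edgeR), and 0.05 against control 2 alone. PQ against NAC passed at -0.33 (SE 0.12, adjusted p = 0.042 by edgeR), but not when any of its PQ or NAC libraries was left out (-0.38 to -0.27, with -0.27 and adjusted p = 0.237 without PQ 1, and 0.0324 to 0.237 over its alternatives). The Lemd3 call was also lost under DESeq2 (adjusted p = 0.121) and limma on log2(FPKM + 1) (0.0539). By edgeR it was lost with no filter (0.0536), the replicate block (0.0656) and the labelled protocol as a covariate (0.126). Emd (NCBI gene 13726), encoding emerin, was read at 43.1 and 51.6 FPKM in control, 42.9 and 44.1 in PQ and 45.0 and 46.1 in NAC. The control libraries lie farther apart than those of either treated group and overlap with both. No comparison of Emd passed, with log2 fold changes of -0.15 in PQ (SE 0.11), -0.10 in NAC (SE 0.11) and -0.05 between PQ and NAC (SE 0.11). Within the Illumina and BGISEQ-500 labels Emd differed by -0.05 and -0.23 in PQ, and NAC differed from control 2 by -0.22.

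The SUN genes encode the inner membrane side of the LINC complex, which spans both membranes with nesprins. Sun1 (NCBI gene 77053) had 26.4 and 29.2 FPKM in control, 25.7 and 27.2 in PQ and 22.8 and 24.3 in NAC, so that NAC was lowest and PQ overlapped with control. Its log2 fold change was -0.10 in PQ (SE 0.10, adjusted p = 0.542 by edgeR), with -0.07 and -0.12 within the Illumina and BGISEQ-500 labels. In NAC it was -0.29 (SE 0.10, adjusted p = 0.0496 by edgeR), just inside the threshold, and without control 2, NAC 1 or NAC 2 it did not pass (-0.21, -0.24 and -0.34, adjusted p = 0.218, 0.259 and 0.0974, within 0.0281 to 0.259 over its alternatives). The Sun1 call in NAC was also lost under DESeq2 (adjusted p = 0.0767) and both limma fits (0.134 and 0.136). By edgeR it was lost with the replicate block (0.0868) and with only the 4 libraries compared (0.0775). PQ against NAC gave 0.19 (SE 0.10, adjusted p = 0.157 by edgeR).

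Sun2 (NCBI gene 223697) went the opposite way to Sun1 in NAC. It had 12.2 and 12.5 FPKM in control, 9.36 and 7.92 in PQ and 16.2 and 18.5 in NAC, without overlap between groups. In PQ Sun2 fell, with a log2 fold change of -0.54 (SE 0.12, adjusted p = 0.003 by edgeR), with -0.43 and -0.67 within the Illumina and BGISEQ-500 labels. Without PQ 2 the value was -0.44 (adjusted p = 0.0553 by edgeR, the highest over its alternatives, which reached down to 2.0e-04). It rose in NAC by 0.44 (SE 0.11, adjusted p = 0.00853 by edgeR), and without NAC 2 that was 0.35 (adjusted p = 0.114 by edgeR, within 0.00227 to 0.114 over its alternatives). PQ and NAC differed by -0.98 (SE 0.11, adjusted p = 3.2e-06 by edgeR). Against control 2 alone the NAC mean differed by 0.43 for Sun2 and -0.36 for Sun1.

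**Figure D4:**
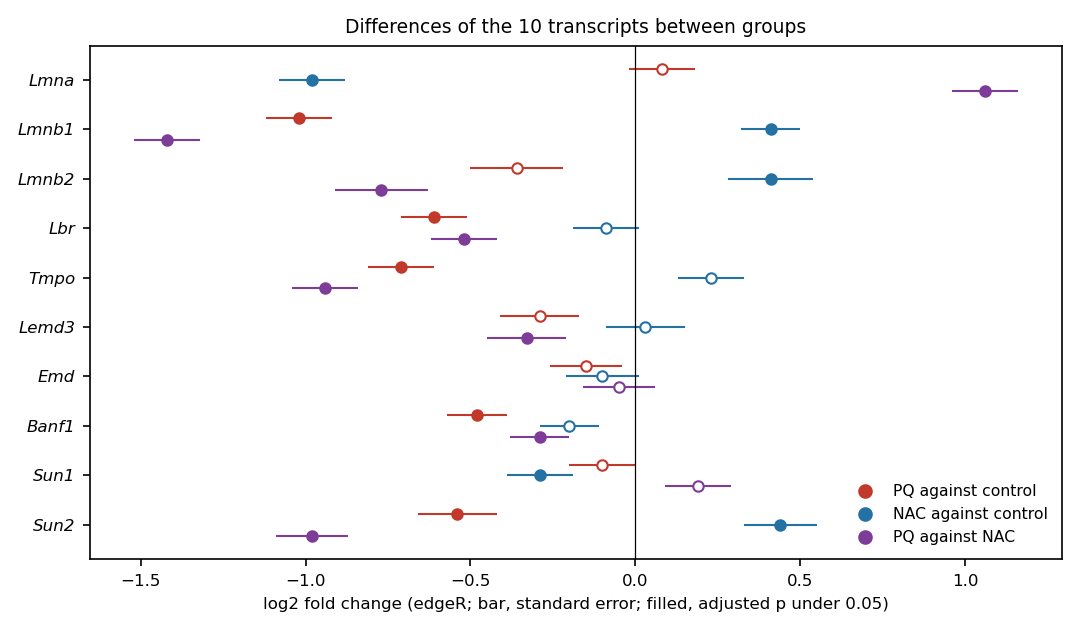
Log2 fold changes of the 10 genes by edgeR (horizontal axis) with their standard errors, for PQ against control, NAC against control and PQ against NAC. Filled points have an adjusted p under 0.05, from Lmnb1 at -1.42 to Lmna at 1.06 in PQ against NAC.

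The genes whose pattern over the 6 libraries was most like that of Lmna and Lmnb1 were found by the root-mean-square difference in log2 CPM centred on the control mean, among 6812 other tested genes averaging 10 FPKM or more. Nearest to Lmna were Mt2 (difference 0.086), Cd24a (0.093), Sparc (0.108), Stac2 (0.114) and Gapdh (0.121). Their log2 fold changes in NAC against control were -0.96, -0.95, -1.01, -0.85 and -0.84, beside -0.98 for Lmna, and in PQ they ranged from -0.07 to 0.11. Nearest to Lmnb1 were Cdca7 (0.084), Zcwpw1 (0.121), Mki67 (0.122), Timeless (0.126) and Mcm3 (0.135), with log2 fold changes in PQ of -0.94, -1.09, -1.13, -0.83 and -0.86 beside -1.02 for Lmnb1. In NAC these 5 ranged from 0.26 to 0.59, and Lmnb1 stood at 0.41.

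Transcripts of proliferating cells moved in PQ in the same direction as Lmnb1. All 17 genes of a proliferation list (Mki67, Top2a, Ccna2, Ccnb1, Cdk1, Bub1, Aurkb, Plk1, Mcm2 to Mcm7, Pcna, Tyms and Rrm2) fell in PQ by edgeR, where 9.45% of all genes were lower, with a median log2 fold change of -0.71, against -0.42 for the 10 envelope genes and -0.00 over all genes. Mki67 had 101 and 104 FPKM in control, 44.6 and 50.5 in PQ and 135 and 119 in NAC. Without control 2, PQ 1 or PQ 2 the count was 15, 13 or 16. Tyms also lost its call in PQ under DESeq2 (adjusted p = 0.0608) and both limma fits (0.0919 and 0.0903). Mcm4 lost its call in PQ under both limma fits (adjusted p = 0.0667 and 0.0656). In NAC Mcm4 rose and the other 16 did not pass, where 9.01% of all genes were higher and 9.64% lower, with a list median of 0.12. The rise of Mcm4 was lost without control 1 (0.31, adjusted p = 0.0565 by edgeR) or NAC 1 (0.41, adjusted p = 0.0629), and its highest adjusted p over the alternatives was 0.0629. The list had 3 genes higher in NAC without control 2 and 2 with no filter, and 1 lower with RLE size factors or DESeq2. Cdkn1a, the cyclin-dependent kinase inhibitor p21, had 243 and 242 FPKM in control, 576 and 536 in PQ and 118 and 136 in NAC. It was highest where Lmnb1 was lowest, and low in NAC, where Lmnb1 was highest. The part of cell cycling in the values of the envelope genes was not tested.

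Related lists describe the surroundings of the 10 genes. Of 5 enzymes that mature prelamins, Fnta, a farnesyltransferase subunit, rose in PQ (0.38, SE 0.12, adjusted p = 0.0261 by edgeR) and its partner Fntb fell (-0.34, SE 0.12, adjusted p = 0.047 by edgeR). Without PQ 1 these were 0.32 (adjusted p = 0.234) and -0.27 (adjusted p = 0.323), the highest over their alternatives, and Fnta was also lost without control 1 and under DESeq2 (0.0707). The fall of Fntb in PQ was also lost without control 2 or PQ 2 and under DESeq2 (0.114), both limma fits (0.109 and 0.108), the replicate block (0.0803), the labelled protocol as a covariate (0.0518) and only the 4 libraries compared (0.0563). Fntb fell in NAC as well (-0.49, SE 0.12, adjusted p = 0.00556 by edgeR), a call lost without NAC 1 (-0.41, adjusted p = 0.0893, the highest over its alternatives). Rce1, Zmpste24 and Icmt did not pass in either comparison. With the labelled protocol as a covariate, the count lower in NAC was 2 of 5, and which gene joined Fntb was not followed. This count also moved without control 1. In the fit of all 6 libraries by group alone the list medians were 0.12 in PQ and 0.04 in NAC. Of the 3 tested genes that make or recycle S-adenosylmethionine, the methyl donor used by Icmt, Ahcy fell in PQ (-0.59, SE 0.10, adjusted p = 3.3e-04 by edgeR). Mat2a and Mat2b did not pass in PQ, none of the 3 passed in NAC, and Gnmt lay below the filter, at 0.10 to 0.28 FPKM. The medians were -0.23 in PQ and -0.00 in NAC. Of all genes, 9.76% were higher and 9.45% lower in PQ, and 9.01% higher and 9.64% lower in NAC, beside the calls of both enzyme lists.

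Among 14 other inner and outer nuclear membrane proteins, 1 rose and 4 fell in PQ, and 1 rose and 3 fell in NAC, with medians of -0.07 and 0.03, beside 9.76% higher and 9.45% lower of all genes in PQ and 9.01% and 9.64% in NAC. By limma 2 rose in PQ, and by limma or with the labelled protocol as a covariate 1 fell in NAC. Nrm, encoding nurim, had 16.6 and 19.3 FPKM in control, 7.37 and 7.28 in PQ and 18.2 and 18.6 in NAC, and its log2 fold change in PQ was -1.32 (SE 0.15, adjusted p = 7.7e-06 by edgeR). Tmem43, encoding the emerin-binding protein LUMA, rose in PQ by 0.65 (SE 0.10, adjusted p = 2.4e-04 by edgeR), from 30.9 and 35.5 FPKM in control to 53.4 and 52.3. In NAC, Syne3, encoding the SUN partner nesprin-3, fell by -1.03 (SE 0.16, adjusted p = 1.3e-04 by edgeR). Tor1aip1, encoding the lamin-binding LAP1, rose there by 0.56 (SE 0.10, adjusted p = 4.0e-04 by edgeR). Syne3 also fell in PQ (-0.66, SE 0.16, adjusted p = 0.00622 by edgeR). That call was lost by limma on log2(FPKM + 0.1) (adjusted p = 0.0537) and without PQ 1 (-0.58).

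Of 29 nuclear pore proteins, 12 fell in PQ and the rest did not pass, with a median of -0.26, where 9.45% of all genes were lower. In NAC 2 rose and 3 fell, with a median of 0.05, where 9.01% of all genes were higher and 9.64% lower. The count of 12 was 7 without control 2 (where 2 rose), 4 without PQ 1, 6 without PQ 2 and 7 by limma. In NAC the counts were 4 higher and 2 lower without control 2, 1 higher and none lower without NAC 2, and 1 higher and 1 lower by limma. The higher count was also 1 without control 1 or with the labelled protocol as a covariate, and 4 with no filter. Nup210, a membrane-spanning pore protein, had the lowest log2 fold change of the list in PQ, -1.0 (SE 0.11, adjusted p = 7.7e-06 by edgeR), and the highest in NAC, 0.56 (SE 0.11, adjusted p = 9.9e-04 by edgeR). Its FPKM was 14.7 and 17.6 in control, 8.96 and 7.44 in PQ and 23.8 and 25.2 in NAC, with the groups in the same order as for Lmnb1. Nup37 was the lowest in NAC (-0.53, SE 0.17, adjusted p = 0.0307 by edgeR), a call lost without control 2 or NAC 2 (-0.36 each, adjusted p = 0.217 and 0.274, the latter the highest over its alternatives) and under DESeq2 and both limma fits (0.084, 0.0609 and 0.0581).

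Of 11 genes for disassembly and sealing of the envelope, 1 rose and 3 fell in PQ and 1 rose in NAC, with medians of -0.01 and 0.07, beside 9.76% higher and 9.45% lower of all genes in PQ and 9.01% higher in NAC. Of the 3 that fell, Cdk1 and Ccnb1 are also in the proliferation list. The gene that rose in NAC, Ist1 (0.36, SE 0.10, adjusted p = 0.0204 by edgeR), did not pass without control 2, NAC 1 or NAC 2 (adjusted p = 0.0833, 0.124 and 0.0714, with 0.124 the highest over its alternatives). In NAC 1 gene of this list was lower without control 2 or with no filter. Chmp7, which recruits the sealing machinery to LEM-domain proteins, rose in PQ by 0.50 (SE 0.11, adjusted p = 0.00347 by edgeR), and Vrk1, the kinase that releases the Banf1 product from DNA, fell by -0.69 (SE 0.12, adjusted p = 4.1e-04 by edgeR). Of 7 chromatin partners of the lamina, Cbx3, an HP1 protein, fell in PQ (-0.43, SE 0.11, adjusted p = 0.00921 by edgeR), but not without PQ 1 (-0.29, adjusted p = 0.197, the highest over its alternatives), and none passed in NAC (1 lower without control 2), with medians of -0.18 and -0.06. Of 5 genes of cytosolic DNA sensing, none passed in PQ, and Sting1 rose in NAC by 0.71 (SE 0.10, adjusted p = 6.5e-05 by edgeR), with medians of -0.07 and 0.08. With no filter 2 of the 5 were higher in NAC. Beside the calls of these 2 lists, 9.45% of all genes were lower in PQ and 9.01% higher in NAC.

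**Figure D5:**
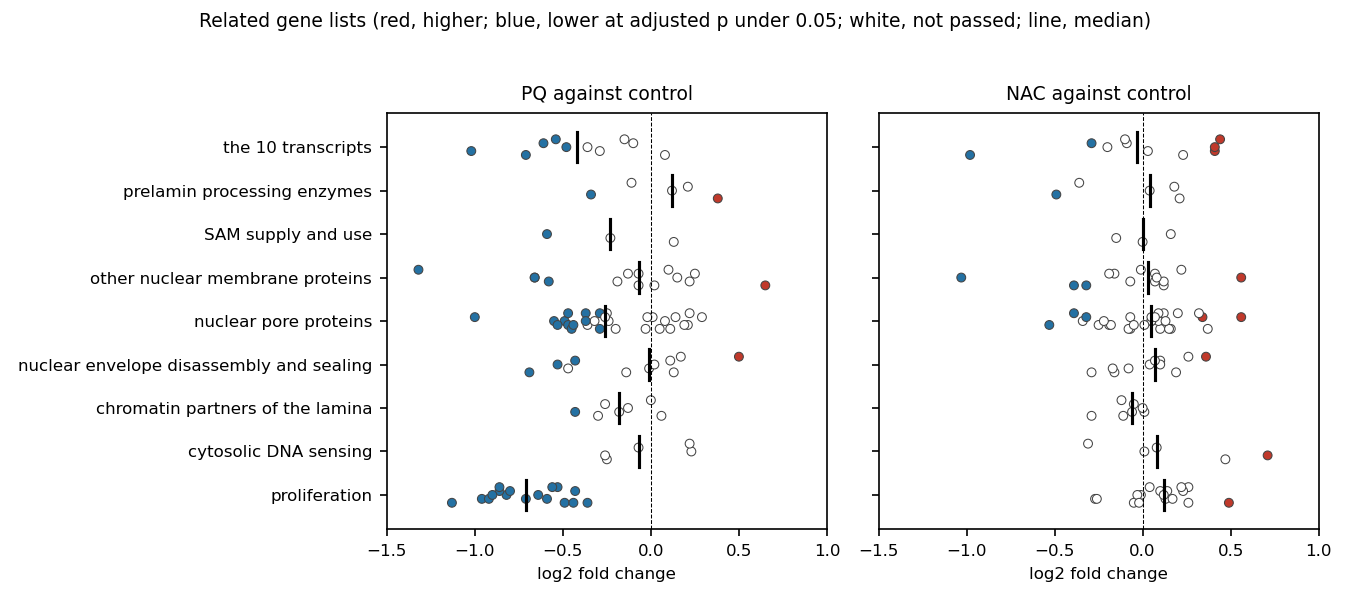
Log2 fold changes (horizontal axes) of the 10 genes and of each gene tested in the related lists, for PQ against control and NAC against control. Red and blue points passed as higher and lower, white points did not pass, and black lines are list medians, such as -0.71 for proliferation and -0.42 for the 10 genes in PQ.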

How the data were processed

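For each library the authors deposited, per NCBI gene identifier, an expected count (an estimate that need not be whole), an FPKM value scaled by transcript length and library total, and a transcript length. The study's methods name TopHat, Cufflinks and mm9. The submitters' processing notes name TopHat2 2.0.11, Cufflinks 2.1.1 and mm9 for control 1 and PQ 1, and HISAT2 2.0.4, Bowtie2 2.2.5, RSEM and mm10 for the other libraries. All 6 tables have the columns RSEM writes, so which steps made those of control 1 and PQ 1 is not clear. Whether strand was used in counting is not given in the sources used here, so overlapping, antisense and paralogous genes are uncertain. The counts of the 10 genes were whole, except that of Sun2 in control 2. Symbols (99.7% of identifiers) and promoters are from RefSeq, GRCm38.p6. RefSeq proteins were not used here.

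Expected counts were rounded and tested with edgeR 4.0.16 in R 4.3.3 (TMM, quasi-likelihood, group as the only term, all 6 libraries, mean FPKM of at least 1, Benjamini-Hochberg adjustment over 11717 genes, threshold 0.05). Standard errors were computed from the fold change and its F statistic. Differences within a label and likeness used TMM-scaled CPM. Scripts were tested on simulated counts. Alternatives were RLE size factors, no filter, DESeq2 1.42.0, limma 3.58.1 on log2(FPKM + 1) and log2(FPKM + 0.1), a replicate block of sets inferred by matching z-scores in the study's source data, not labelled (control 1, PQ 1 and NAC 2 in a set, control 2, PQ 2 and NAC 1 in the other), the labelled protocol as a covariate, only the 4 libraries compared, and leaving out each library.

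The 10 genes and all lists were chosen with earlier results of these data known. Named genes are the 10 in every library, genes that passed at either end of a list in PQ or NAC against control, all of the 2 enzyme lists and of the proliferation list, the 5 nearest to Lmna and to Lmnb1, Cdkn1a, Cdkn2a and markers.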

Additional observations from a re-analysis of the deposited data

How the results depend on the processing

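The groups have 2 libraries each, so leaving out a library leaves a lone library that is assumed to vary like the other groups, and calls can be lost through fewer libraries alone. NAC has libraries of a single labelled protocol, so its difference from control 1 also crosses protocols. Transcripts were measured, not protein or nuclear shape, and cell counts, cell cycle stage and cell types were not measured beside them. Motif windows cover annotated starts only. All alternatives planned were run.

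Over the alternatives, 322 of 360 fold changes of the 10 genes kept direction and call, 33 lost the call, 2 gained it and 3 changed sign. For calls of list genes and Cdkn1a, where only a loss or a reversal could show, 1045 of 1224 values were the same and 179 lost the call. Genes of the lists without a call, and markers, were not followed one by one. Genes changed in PQ against control were 2250, and 866 to 2206 leaving out a library. In NAC against control they were 2186, and 1286 to 2126 leaving out a library. In PQ against NAC they were 3708, and 2343 to 2769 leaving out a library.

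Of the 10 genes, 3 were higher in NAC, and 1 to 3 leaving out a library. The 2 lower in NAC were 1 under DESeq2, limma on log2(FPKM + 1) and on log2(FPKM + 0.1), the set as a replicate block and only the 4 libraries compared, and 1 to 2 leaving out a library.

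Lmnb2 in PQ against control passed with no filter on low values (-0.36) and ranged from -0.55 to -0.14 leaving out a library. Lmnb2 in NAC against control lost its call under DESeq2 (0.41), limma on log2(FPKM + 1) (0.43) and log2(FPKM + 0.1) (0.47), the replicate block (0.41) and the protocol covariate (0.35), and ranged from 0.22 to 0.63 leaving out a library. Sun1 in NAC lost its call under DESeq2 (-0.29), limma on log2(FPKM + 1) (-0.23) and log2(FPKM + 0.1) (-0.24), the replicate block (-0.29) and only the 4 libraries compared (-0.28), and ranged from -0.36 to -0.21 leaving out a library. Lemd3 in PQ against NAC lost its call with no filter (-0.33), DESeq2 (-0.32), limma on log2(FPKM + 1) (-0.30), the replicate block (-0.33) and the protocol covariate (-0.31), and ranged from -0.38 to -0.27 leaving out a library. Banf1 in PQ against NAC lost it with the protocol covariate (-0.30) and ranged from -0.31 to -0.26 leaving out a library.

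Leaving out a library, Sun2 in PQ against control ranged from -0.66 to -0.44 and in NAC against control from 0.35 to 0.52, and Lmnb1 in NAC against control from 0.30 to 0.50. Values near 0 changed sign without a call. Lbr in NAC against control ranged from -0.18 to 0.00 and Emd from -0.22 to 0.03 leaving out a library, and Emd in PQ against NAC was 0.03 with the protocol covariate.

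Deviations from the group means correlated between libraries of the same inferred set at -0.113 for control and PQ, -0.232 for control and NAC and 0.161 for PQ and NAC. Fitted as a replicate block, the set numbers left as genes changed 1798 in PQ against control, 1804 in NAC against control and 3243 in PQ against NAC. Crossed set numbers as a replicate block, chosen after seeing the data, gave 3291, 3178 and 4760 genes changed.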
